A study of Mus musculus with 8 samples.

Results

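The genes described here encode the respiratory chain and ATP synthase: every listed gene whose symbol begins with Ndufa, Ndufb, Ndufc, Ndufs, Ndufv, Uqcr, Cox4i, Cox5, Cox6, Cox7, Cox8, Atp5, mt-Nd, mt-Co, mt-Cytb or mt-Atp, together with Sdha, Sdhb, Sdhc, Sdhd and Cyc1. The rule found 98 of the 12528 genes listed, and used names and no measured value. Nuclear DNA encodes 76 of them as subunits, 37 in complex I, 4 in complex II, 9 in complex III, 11 in complex IV and 15 in complex V. Another 9 nuclear genes matched by name only: Ndufaf1 to Ndufaf7 are complex I assembly factors, and Atp5s and Atp5sl are not subunits. The remaining 13 are the protein-coding genes of mitochondrial DNA, 7 for complex I, 1 for complex III, 3 for complex IV and 2 for complex V.

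Poly(A)-selected RNA was sequenced from mouse embryonic fibroblasts (MEFs) of wild-type (WT) mice and of littermates lacking caveolin-1 (Cav1KO), the structural protein of caveolae. Cells had been seeded sparsely on stiff or soft polyacrylamide hydrogels and were harvested 24 h later, which gave 2 libraries for each of the 4 pairings of genotype and substrate. No further agent was added. According to the paper, the MEFs of both genotypes had been immortalized. Whether a difference between genotypes reflects Cav1 or the history of the cells was not tested. The labels say neither how many embryos the cells came from nor whether the 2 libraries of a group were separate cultures, so p-values measure only the spread between these libraries. The comparisons ask how the chain's mRNAs responded to substrate stiffness, whether that response depended on Cav1, and how the genotypes differed on each substrate.

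The libraries held 17089836 to 19944952 reads. Cav1 lay between 950 and 1157 TMM-normalised CPM in the 4 WT libraries and between 0.0523 and 0.411 in the 4 Cav1KO libraries, so each library matched its genotype label. Of 10 fibroblast markers 8 were listed, and their summed level was 8796 to 11380 in WT and 4397 to 13344 in Cav1KO libraries, lowest in the 2 Cav1KO stiff libraries. Among the markers of other lineages, Cd68 alone of 5 macrophage and Tnnt2 alone of 7 striated muscle genes were listed, with sums of at most 4.55 and 3.82, and no epithelial or endothelial marker was. Their part in the results below was not tested.

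Complex I takes electrons from NADH and complex II takes them from succinate. Both pass them through ubiquinone to complex III, then through cytochrome c to complex IV, which reduces oxygen. Complexes I, III and IV pump protons, and complex V uses the returning protons to make ATP. Complex II is wholly nuclear-encoded, while the other complexes combine nuclear subunits, imported after translation in the cytosol, with a few catalytic or membrane subunits made inside the organelle. Mitochondrial DNA is transcribed from both strands as long precursors that are cut into separate messengers, so the messengers of a strand share their transcription.

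Several of these genes are short or nearly repeated elsewhere, which bears on how their reads can be assigned. The mitochondrial genes have near-copies in nuclear DNA on chromosome 1 that were listed as genes of their own. In the GRCm38 transcripts, mt-Co2 was identical to Gm28661 over all 681 aligned bases, mt-Co3 to Gm28437 over 783, mt-Atp6 to Gm10925 over 678 and mt-Nd4l to Gm10222 over 294. mt-Nd3 and Gm28438 differed at 1 of 345 bases, T3C, counted from the first base of mt-Nd3 (chrM:9459-9806, plus strand). Their first 60 bases are shown with that base in capitals, because a 60-base read within the aligned stretch that misses it fits both genes equally.
mt-Nd3: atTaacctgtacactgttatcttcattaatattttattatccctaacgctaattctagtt
Gm28438: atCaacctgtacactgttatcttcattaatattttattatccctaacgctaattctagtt

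The listed copies held 61.5% to 67.9% of the combined value of the mitochondrial genes and their copies in each library. mt-Co2 as listed illustrates the uncertainty of that division, with 0 and 1 reads in the WT stiff libraries but 1254 and 769 in WT soft. Mitochondrial values are therefore given below with the value of each listed copy added, an alternative chosen after the values were seen. The counts as listed stand beside them. Copies without a listed value could not be added. Of these, Gm28439 holds 61.9% of the read-length windows of mt-Nd4 and Gm13341 29.4% of those of mt-Co2. Gm13340 holds 22.0% of those of mt-Co1 and Gm13339 7.15% of those of mt-Nd2. A second ambiguity lies within mitochondrial DNA itself: mt-Atp8 and mt-Atp6, which encode the 2 mitochondrial subunits of complex V, share 43 bases (chrM:7927-7969), and are carried on 1 messenger.
mt-Atp8 and mt-Atp6, shared bases: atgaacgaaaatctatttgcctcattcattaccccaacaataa

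Taken per genome, the nuclear and mitochondrial parts of the chain did not move together with stiffness. Summed over the 76 nuclear subunits, the normalised values were 12979 and 14637 in WT stiff, 13118 and 12766 in WT soft, 15401 and 17473 in Cav1KO stiff, and 13456 and 13710 in the Cav1KO soft libraries. The Cav1KO stiff libraries stood above the other 6, whereas WT stiff and WT soft overlapped. Summed over the 13 mitochondrial genes with copies, the values were 3212 and 3202 in WT stiff, 7056 and 4629 in WT soft, 5858 and 9155 in Cav1KO stiff and 7530 and 7287 in Cav1KO soft. WT stiff was lowest, below the other 6 libraries. The mitochondrial sum divided by the nuclear sum was 0.247 and 0.219 in WT stiff, 0.538 and 0.363 in WT soft, 0.380 and 0.524 in Cav1KO stiff and 0.560 and 0.532 in Cav1KO soft. mt-Co3 alone supplied 1812 to 4824 of the mitochondrial value per library, and WT stiff also stayed lowest without it, at 1400 and 1291 against 1929 to 4331. In bulk RNA, fewer cells of a type and less RNA per cell cannot be told apart.

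**Figure D1:**
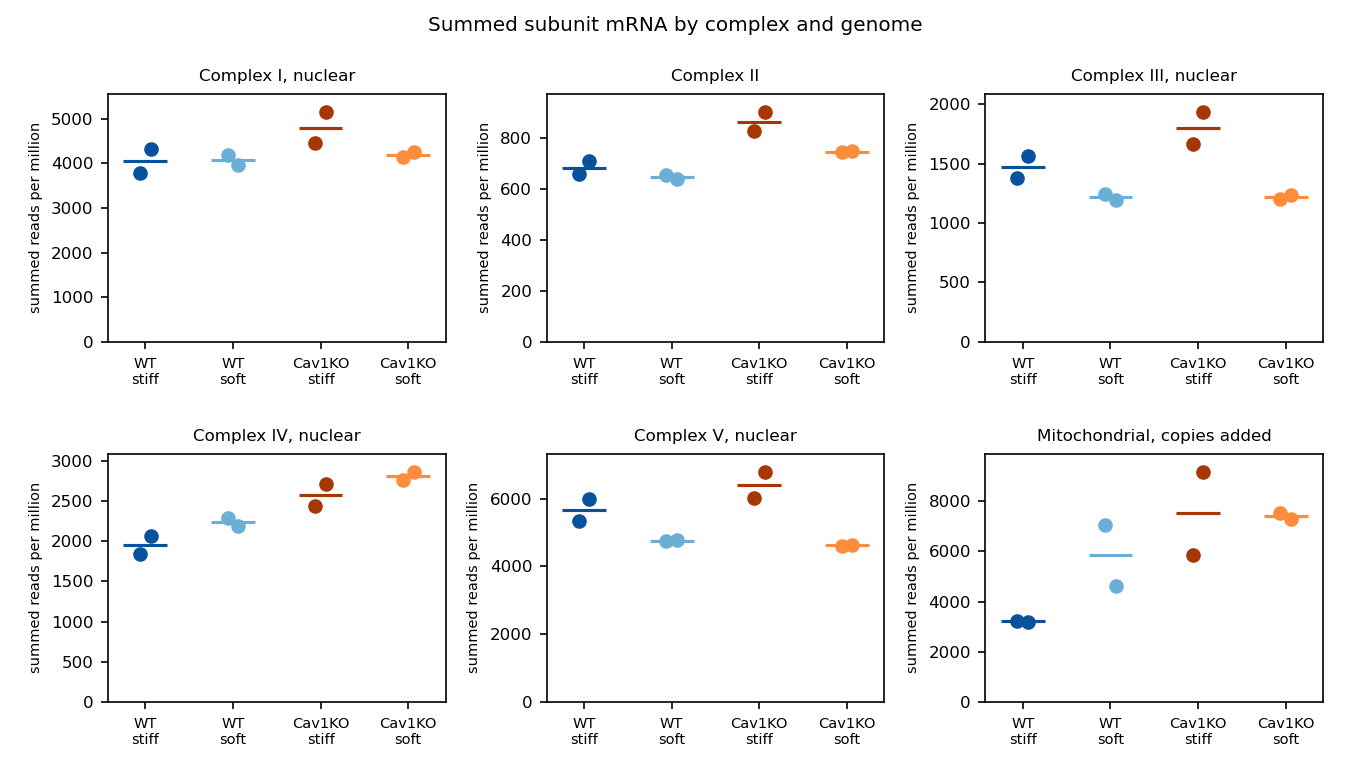
Summed values of the nuclear-encoded subunits of each complex and of the mitochondrially encoded subunits with copies added, in TMM-normalised CPM on axes that start at 0. Each point is a library and each bar the mean of the 2 libraries of a group; in WT stiff the mitochondrial libraries, 3212 and 3202, lie below those of every other group.

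Replicates also differed across the whole set. In WT stiff 75 of the 76 nuclear subunits were higher in replicate 2 than in replicate 1, with a median log2 difference of 0.19, and in Cav1KO stiff 70 were, with a median of 0.20. All genes tested had medians of 0.02 and -0.00 between the same libraries. For the mitochondrial genes with copies, Cav1KO stiff replicate 2 exceeded replicate 1 for all 13, by a median of 0.64, and WT soft replicate 2 lay below replicate 1 for all 13, by a median of -0.45. These shifts between replicates are of the same order as several of the differences below, and the spread they add enters every test.

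In WT cells, nuclear subunits were called in both directions on stiff, with complex III only upward and complex IV mostly downward. Of the 76 nuclear subunits 17 were higher and 14 lower on stiff at an adjusted p under 0.05 by limma, against 22.1% of all 12494 genes tested called higher and 26.3% called lower. The share called higher was near that background. The median log2 difference of the nuclear subunits was 0.10, beside -0.02 over all genes. By complex, 5 rose and 6 fell of 37 in complex I, 1 rose and 1 fell of 4 in complex II, 4 rose and 0 fell of 9 in complex III, 1 rose and 5 fell of 11 in complex IV, and 6 rose and 2 fell of 15 in complex V. The count of 17 was 8 without WT stiff replicate 2, 9 without WT soft replicate 1 and 11 without WT soft replicate 2, and the count of 14 was 6 without WT stiff replicate 1 or without WT soft replicate 1. After a correction for transcript length 29 were called higher and 14 lower, and after quantile normalization 14 and 17. The median was 0.13 in complex III, 0.17 in complex V and -0.17 in complex IV.

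In Cav1KO cells, nuclear subunits of complexes II, III and V were called upward only, and complexes I and IV in both directions. Of 76, 40 were higher and 9 lower on stiff, against 27.9% of all genes called higher and 28.2% called lower, and the median log2 difference was 0.27, beside -0.02 over all genes. Complex I had 20 up and 5 down, complex II 2 up and 0 down, complex III 6 up and 0 down, complex IV 2 up and 4 down, and complex V 10 up and 0 down. Rescaling the libraries to equal totals shifted the median of all genes by -0.10 and left 29 nuclear subunits called higher and 16 lower. Quantile normalization gave 29 and 17, and the length correction 29 and 18, the same number higher as in WT with that correction, so the split between directions depended on the scaling, while the medians by complex kept their sign: those of complexes I, II, III and V stayed above 0 and that of complex IV below 0 under all 26 alternatives. Without Cav1KO soft replicate 2, 5 were called lower.

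The 2 stiffness comparisons share no library, so their calls can be set side by side. In both genotypes 15 nuclear subunits were higher on stiff and 8 were lower, against 16.4% and 17% of all genes. None was called in opposite directions, a share that was not counted over all genes. Called higher in Cav1KO only were 25, in WT only 2. That asymmetry is not itself a test. Over all 12494 genes, too, more were called higher in Cav1KO (3488) than in WT (2763), with 2055 in both. In the test of the difference between the 2 stiffness effects, limma called 0 of 76 nuclear subunits, against 4.47% of all genes called higher and 6% called lower for the WT effect minus the Cav1KO effect. At an unadjusted p under 0.05 there were 21 of 76, 2 above and 19 below 0, edgeR on the recovered reads called 0, and DESeq2 called 1 lower. The median of these differences was -0.23, beside -0.07 over all genes. Leaving out Cav1KO stiff replicate 1 turned 20 of the 76 into calls below 0 and 1 into a call above 0. A replicate block with the WT soft numbers crossed, described in the closing section, gave 19 below and 2 above 0 with every library kept. Over all 12494 genes that block called 1978 below and 1675 above 0, beside 750 and 559 in the main fit. Its crossing follows the signs of correlations between these same libraries. The 0 calls thus depended on these choices.

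**Figure D2:**
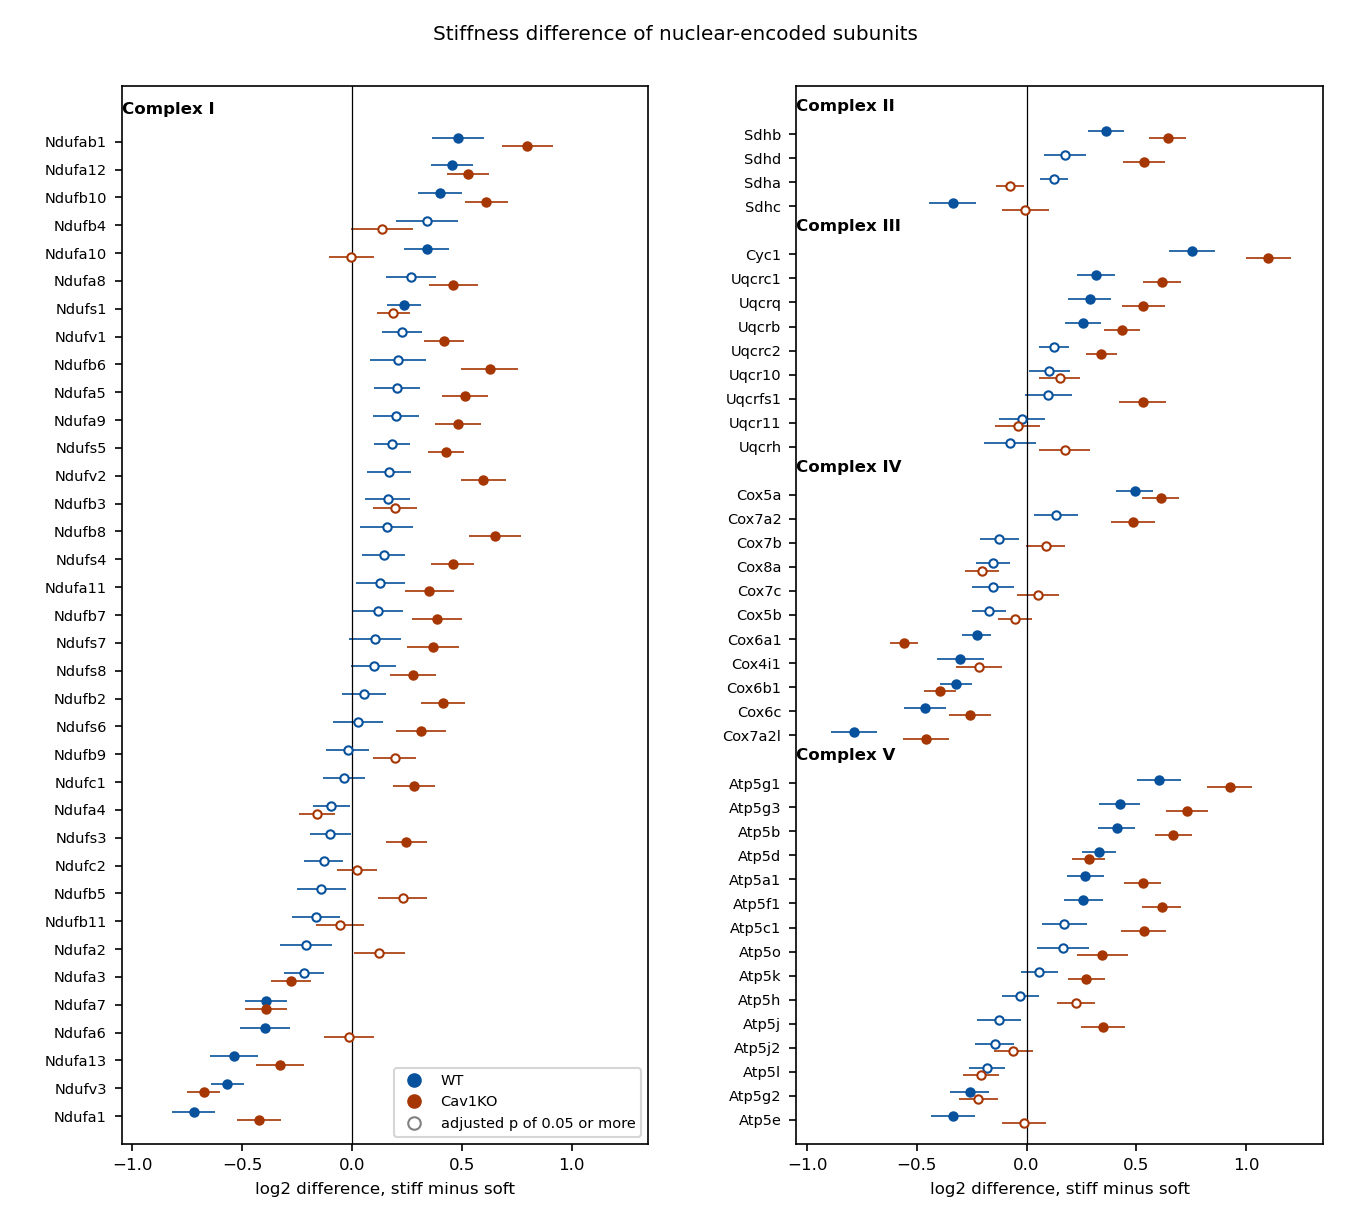
Log2 difference between stiff and soft (x axis) for 75 of the 76 nuclear-encoded subunits, each with its standard error, in WT (blue) and Cav1KO (red) cells, grouped by complex and ordered by the WT value. Filled points passed an adjusted p of 0.05; most complex III and V points lie right of 0 and most complex IV points left of it.

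Within complex III, Cyc1, the cytochrome c1 that hands electrons to cytochrome c, showed the highest rise of any nuclear subunit in both genotypes. Its values were 275 and 324 in WT stiff, 179 and 175 in WT soft, 447 and 534 in Cav1KO stiff and 224 and 231 in Cav1KO soft. Stiff libraries were above soft ones without overlap in each genotype, with log2 differences of 0.75 ± 0.10 in WT (SE, adjusted p = 0.000586) and 1.10 ± 0.10 in Cav1KO (adjusted p = 6.15e-05, limma). Uqcrc1, a core protein, rose by 0.32 ± 0.09 and 0.62 ± 0.09, and Uqcrb and Uqcrq, small subunits at the ubiquinone site and the membrane arm, also rose in both genotypes. The other members of the complex include Uqcrfs1, the iron-sulfur protein, and Uqcrc2, called higher in Cav1KO only, and Uqcr10, Uqcr11 and Uqcrh, called in neither.

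In complex V, members of both the catalytic head and the proton-carrying ring rose. Atp5a1 and Atp5b, the alpha and beta subunits that form ATP, and Atp5d of the central stalk were called higher on stiff in both genotypes, with Atp5b at 1464 and 1594 in WT stiff, 1127 and 1172 in WT soft, 1618 and 1795 in Cav1KO stiff and 1062 and 1081 in Cav1KO soft. Subunit c, the ring that turns as protons pass, is encoded by 3 genes with the same mature protein. Atp5g1 was at 249 and 297 in WT stiff against 174 and 184 in WT soft, and at 347 and 396 in Cav1KO stiff against 188 and 202 in Cav1KO soft, rises of 0.60 ± 0.10 (adjusted p = 0.00160) and 0.93 ± 0.10 (adjusted p = 0.000129). Atp5g3 rose as well, by 0.42 ± 0.10 and 0.73 ± 0.10. Atp5g2 went the other way, at 191 and 216 in WT stiff against 243 and 243 in WT soft, a difference of -0.26 ± 0.09 (adjusted p = 0.0417), which did not pass once its near-copy Gm10175 was added (-0.21 ± 0.10, adjusted p = 0.132). Atp5e, the small epsilon subunit of the stalk, had the deepest fall of the complex in WT, at 97.7 and 114 against 137 and 130 (-0.33 ± 0.10, adjusted p = 0.0228), and a difference of -0.01 ± 0.10 in Cav1KO.

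In complex IV the median stiffness difference was below 0 in both genotypes, at -0.17 and -0.20, whereas the medians of the other complexes were above 0; the complexes were not tested against each other. Cox5a, a subunit of the matrix side, was its only member called higher in both genotypes, at 172 and 196 against 125 and 135 in WT and 230 and 246 against 154 and 157 in Cav1KO (0.49 ± 0.08 and 0.61 ± 0.08). Cox7a2l, which promotes joining of complexes III and IV into supercomplexes and was long counted as a complex IV subunit, was at 122 and 143 in WT stiff against 243 and 215 in WT soft, and at 132 and 152 against 191 and 200 in Cav1KO. It fell by 0.78 on the log2 scale in WT (adjusted p = 0.000491) and by 0.46 in Cav1KO (adjusted p = 0.00580), and by 0.78 and 0.48 with its copy Gm6969 added. Cox6a1, the broadly expressed isoform of a membrane subunit, was at 212 and 224 against 258 and 252 in WT and at 189 and 194 against 280 and 286 in Cav1KO, differences of -0.23 ± 0.06 and -0.56 ± 0.06. Cox6b1 and Cox6c also fell in both genotypes. Of Cox7a2 and Cox8a, the general isoforms of 2 further small subunits, Cox7a2 rose in Cav1KO (0.48 ± 0.10) and Cox8a passed in neither. The tissue-restricted partners Cox4i2, Cox6a2, Cox6b2, Cox7a1, Cox8b and Cox8c were not analysed here.

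Complex I was mixed. Ndufab1, the acyl carrier that is part of the membrane arm and also serves fatty acid synthesis, was at 63.0 and 69.6 in WT stiff against 43.9 and 50.6 in WT soft, and at 63.4 and 77.7 against 40.0 and 39.9 in Cav1KO, rises of 0.48 ± 0.12 and 0.80 ± 0.12 (0.35 ± 0.10 and 0.75 ± 0.10 with its near-copies added, adjusted p = 0.0145 and 0.000262). Ndufa1, a small membrane subunit encoded on the X chromosome, was at 40.1 and 44.6 against 74.4 and 66.6 in WT and at 62.8 and 72.1 against 92.1 and 89.3 in Cav1KO. It fell by 0.72 (adjusted p = 0.000554) and by 0.42 (adjusted p = 0.00622). Ndufv3, a small subunit of the NADH-binding module, fell by 0.57 and 0.68, whereas its partners there, Ndufv1 and Ndufv2, were called higher in Cav1KO only. Ndufa4, named as a complex I subunit but since assigned to complex IV, stood at -0.09 ± 0.08 and -0.16 ± 0.08, passing in neither genotype.

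Complex II is also an enzyme of the citric acid cycle, and its 4 members differed among themselves. Sdhb, the iron-sulfur subunit, was at 136 and 154 in WT stiff against 111 and 114 in WT soft and at 137 and 146 against 93.3 and 87.2 in Cav1KO, rises of 0.36 ± 0.08 and 0.64 ± 0.08. Sdhd, a membrane anchor, rose in Cav1KO (0.53 ± 0.09, adjusted p = 0.00155) and had a value of 0.17 ± 0.09 in WT (adjusted p = 0.160). Sdhc, the other anchor, was lower on stiff in WT (-0.34 ± 0.11, adjusted p = 0.0299) and had a value of -0.01 ± 0.11 in Cav1KO. Sdha, the catalytic flavoprotein, was at 243 and 247 in WT stiff, 225 and 225 in WT soft, 266 and 253 in Cav1KO stiff and 272 and 274 in Cav1KO soft, and passed in neither.

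The mitochondrial messengers were lower on stiff in WT cells almost throughout. With copies added 11 of 13 were called lower and 0 higher, with a median log2 difference of -1.02, and as listed 8 were lower and 0 higher, against the 26.3% called lower over all genes. The exceptions were mt-Atp8 (-0.86 ± 0.32, adjusted p = 0.0514) and mt-Nd3 (0.10 ± 0.21, adjusted p = 0.726). mt-Co1, the catalytic subunit of complex IV, was at 126 and 111 in WT stiff against 432 and 335 in WT soft, a difference of -1.68 ± 0.25 (adjusted p = 0.000765). mt-Co2, which receives electrons from cytochrome c, was at 43.6 and 43.5 against 157 and 128 (-1.68 ± 0.23, adjusted p = 0.000565). mt-Cytb, the mitochondrial subunit of complex III, was at 36.8 and 30.7 against 89.3 and 74.0 (-1.25 ± 0.23). Among the complex I genes mt-Nd4, whose unlisted copy Gm28439 could not be added, had the deepest difference, 12.9 and 10.9 against 40.5 and 34.7 (-1.58 ± 0.22). mt-Nd1, mt-Nd2 and mt-Nd5 lay between -1.14 and -1.02, and mt-Nd4l, at under 3 in the WT libraries, had -0.76 ± 0.16. mt-Nd6, the only one of the 13 on the light strand, was at 9.99 and 11.0 against 20.2 and 14.5 (-0.66 ± 0.18). Its position (chrM:13552-14070) overlaps the end of mt-Nd5 (chrM:11742-13565) on the other strand. Without strand in the library, reads of mt-Nd6 cannot be told from RNA of the opposite strand.

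In Cav1KO cells mitochondrial messengers were called in both directions, mostly lower. With copies added 7 of 13 were lower on stiff and 1 was higher, and as listed 5 were lower and 1 higher. Over all genes 28.2% were called lower and 27.9% higher. mt-Co1 was at 231 and 432 in Cav1KO stiff against 576 and 566 in Cav1KO soft (-0.85 ± 0.25, adjusted p = 0.0173), mt-Co2 at 95.7 and 177 against 253 and 247 (-0.94 ± 0.23), and mt-Cytb at 67.2 and 120 against 147 and 140 (-0.67 ± 0.23). mt-Co3 had a value of -0.00 ± 0.22, and mt-Atp6, the proton channel of complex V, of -0.07 ± 0.30, the first at 3186 and 4824 against 4016 and 3845. Within Cav1KO stiff, replicate 1 held the lower value of each gene. As listed, the count of 5 was 1 without Cav1KO stiff replicate 1 or Cav1KO soft replicate 1, and 2 without Cav1KO soft replicate 2.

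mt-Nd3 departed from the other mitochondrial genes. With its copy it was at 441 and 515 in WT stiff, 504 and 394 in WT soft, 658 and 1067 in Cav1KO stiff and 344 and 330 in Cav1KO soft. It rose on stiff in Cav1KO cells by 1.31 ± 0.21 (adjusted p = 0.000809) and overlapped between substrates in WT, and the difference between the 2 effects was -1.22 ± 0.29 (adjusted p = 0.0400). It was the only 1 of 13 called in that test with copies added, while as listed 2 were called, mt-Co2 and mt-Nd3. Over all genes 4.47% were called above 0 and 6% below 0 in that test. The median difference between effects over the 13 genes with copies was -0.74, and as listed 7 were called without Cav1KO stiff replicate 1 and 1 without WT stiff replicate 1, WT soft replicate 1 or either Cav1KO soft library.

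**Figure D3:**
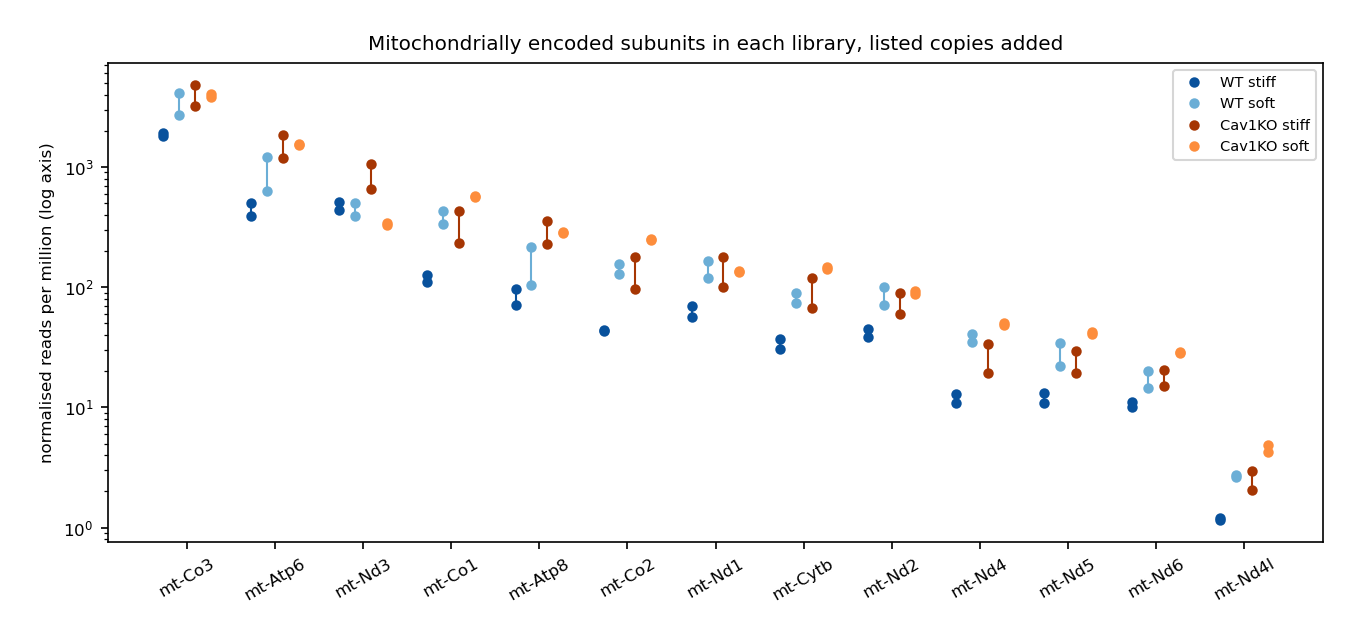
Values of the 13 mitochondrially encoded genes in each library with listed copies added, in TMM-normalised CPM on a log axis, with the 2 libraries of a group joined by a line. WT stiff (dark blue) was lowest for every gene except mt-Nd3, which was lowest in Cav1KO soft (344 and 330).

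Compared between genotypes on the stiff substrate, all 13 mitochondrial genes with copies were called higher in Cav1KO than in WT. Their median log2 difference was 1.06, with a range from 0.68 to 1.77. As listed 12 were called, against 25% of all genes called higher and 26.6% called lower. mt-Atp8, at 228 and 353 against 96.1 and 70.6, had the top value (1.77 ± 0.32, adjusted p = 0.00177), and mt-Atp6, on the same messenger, followed at 1.72 ± 0.30. On the soft substrate 6 of 13 with copies and 3 as listed were higher in Cav1KO and 0 lower, against 24.1% of all genes called higher and 29.9% called lower. The 6 were mt-Atp6, mt-Atp8, mt-Co2, mt-Cytb, mt-Nd4l and mt-Nd6. The listed count of 3 was 0 without WT soft replicate 2 or Cav1KO soft replicate 1, 1 without Cav1KO soft replicate 2, 5 without WT soft replicate 1, and 6 without either Cav1KO stiff library. The genotype comparisons share their libraries with the stiffness comparisons, so low values in WT stiff enter both.

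Among the nuclear subunits 28 were higher and 5 lower in Cav1KO on stiff, with a median of 0.20, beside 25% and 26.6% of all genes called, and 22 were higher and 16 lower on soft, with a median of 0.04, beside 24.1% and 29.9%. The share higher on soft was near that background. These 2 comparisons share no library, and 20 subunits were called higher and 3 lower on both substrates, against 15.7% and 18.9% of all genes, the latter Atp5f1, Ndufb7 and Ndufs5. On stiff the length correction gave 25 higher and 10 lower, and the 5 lower calls were 3 without WT stiff replicate 2 or Cav1KO stiff replicate 1. On soft the 22 higher calls were 13 without either Cav1KO soft library, and the 16 lower calls were 8 without WT soft replicate 1, 6 without Cav1KO soft replicate 1 and 10 without Cav1KO soft replicate 2. Rescaling to equal totals gave 33 higher and 12 lower on soft and shifted the median of all genes by 0.10, and the length correction gave 35 and 13.

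Ndufb5, a membrane-arm subunit of complex I, had the widest genotype difference of the nuclear subunits. It was at 87.4 and 104 in WT stiff, 109 and 102 in WT soft, 273 and 329 in Cav1KO stiff and 251 and 259 in Cav1KO soft, a difference of 1.64 ± 0.11 on stiff (adjusted p = 6.67e-06) and 1.27 ± 0.11 on soft (adjusted p = 2.88e-05). Cox4i1, the general isoform of the largest nuclear subunit of complex IV, was at 219 and 253, 310 and 273, 548 and 633, and 664 and 706 in the same order, differences of 1.32 ± 0.11 and 1.23 ± 0.11. Ndufa4 was 0.72 ± 0.08 and 0.78 ± 0.08 higher. Cyc1 was 0.71 ± 0.10 and 0.36 ± 0.10 higher. Atp5j, the coupling factor of the stator stalk, was 0.88 ± 0.10 higher on stiff and Atp5l, a membrane subunit, 0.59 ± 0.08 higher on soft. Of the read-length windows of Atp5l, 82.9% are shared with genes that have no listed value, so these could not be added. In the other direction Atp5f1, subunit b of the stator, was at 388 and 434, 350 and 336, 275 and 316, and 188 and 196, differences of -0.48 ± 0.09 and -0.84 ± 0.09, and Ndufb7 of complex I had -0.58 ± 0.11 and -0.86 ± 0.11. Uqcrc1 (-0.24 ± 0.09) and Cox7a2 (-0.29 ± 0.10) were lower on soft, and Cox6a1 (-0.18 ± 0.06, adjusted p = 0.0427) on stiff.

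The genotype differences of the nuclear subunits varied with those of the genes around them. Across the 73 subunits with at least 5 tested genes within 1 Mb, the subunit's log2 difference and the median of those neighbours correlated with r = 0.865 (Spearman's rho 0.790) on stiff and r = 0.761 (rho 0.646) on soft. Over the 6686 genes at least as abundant as the lowest nuclear subunit the same r was 0.332 (rho 0.451) on stiff and 0.315 (rho 0.444) on soft. For the stiffness differences of the subunits r was 0.0748 in WT and 0.0408 in Cav1KO. This comparison was chosen after the values were seen. It is a description across genes from the same libraries, and subunits that lie near each other share neighbours. Without the 2 subunits whose neighbours lay farthest from the median, r was 0.826 on stiff and 0.679 on soft, and with neighbours counted only from 10 kb outward it was 0.872 and 0.805 over 70 subunits.

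Cox4i1 (chromosome 8, 120668222 to 120674207, GRCm38) had 23 neighbours with medians of 1.12 on stiff and 1.40 on soft, and 20 of 23 were above 0 on stiff. Ndufb5 (chromosome 3, 32736990 to 32751566) had 8, with medians of 0.86 and 0.84. Around Cyc1 (chromosome 15, 76343523 to 76346260), 44 of 53 neighbours were above 0 on stiff, with a median of 0.40. Atp5f1 had 8 neighbours with medians of -0.58 and -0.83, and Ndufb7 had 29 with medians of -0.58 and -0.69. Some neighbours overlap the subunit and share its reads: Emc8 holds 13.5% of the 60-base windows of Cox4i1, Mrpl47 15.4% of those of Ndufb5 and Wdr77 14.4% of those of Atp5f1, and reads from such pairs cannot be told apart in a library without strand.

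**Figure D4:**
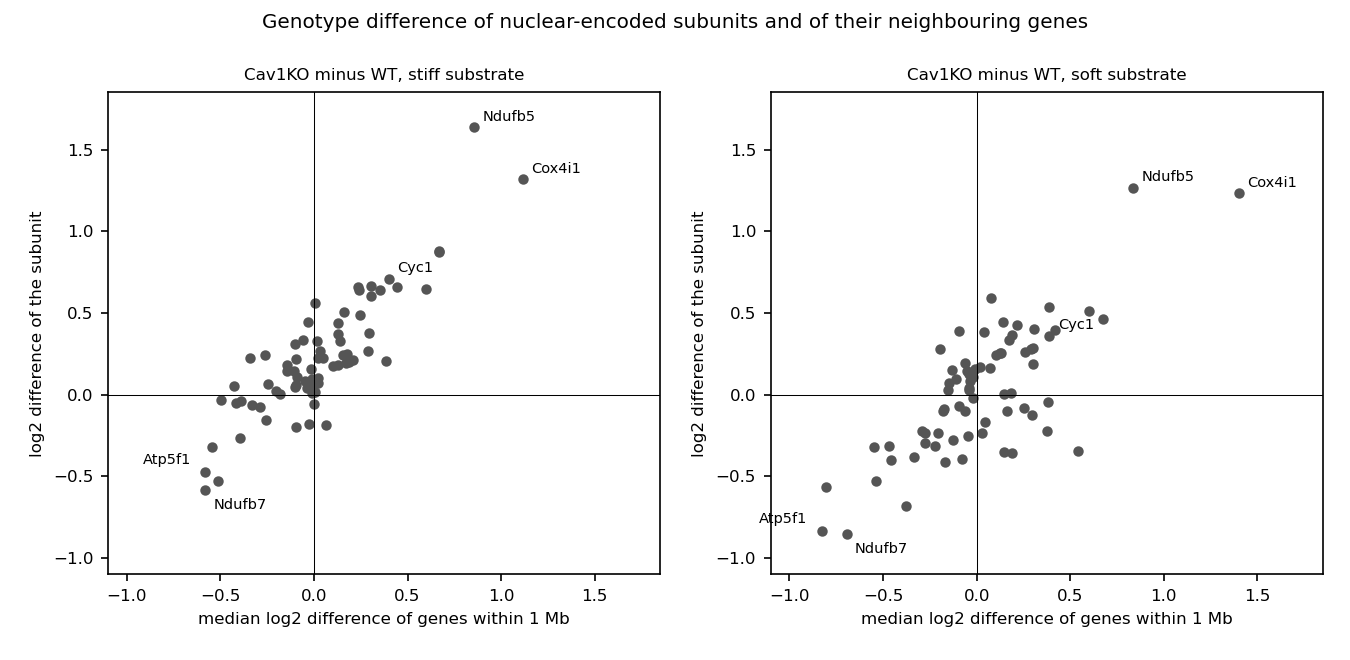
Genotype difference (log2, Cav1KO minus WT) of each nuclear-encoded subunit on the y axis against the median of the tested genes within 1 Mb on the x axis, on stiff (left) and soft (right), for 73 subunits. Points rise from lower left to upper right, with Atp5f1 and Ndufb7 low and Ndufb5 and Cox4i1 high on both substrates.

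Transcripts of these subunits are short. Principal transcripts of the 76 nuclear subunits ran from 371 to 4715 nt with a median of 870, the mitochondrial genes from 204 to 1824 nt with a median of 784, against a median of 2950 over all genes tested. Length moved with the stiffness difference across the whole table in Cav1KO cells, where all genes under 600 nt had a median of 0.19, those of 600 up to 1000 nt 0.21 and those of 1000 nt and over -0.04. In WT cells each of the 3 medians was -0.02. The nuclear subunits did not follow that order. In Cav1KO the 17 subunits under 600 nt had a median of -0.01, with 4 called higher and 4 lower, the 26 of 600 up to 1000 nt had 0.28, with 13 and 2, and the 33 of 1000 nt and over had 0.42, with 23 and 3. In WT the medians were -0.15, 0.11 and 0.17 in that order. By the longest annotated transcript, which left 6 subunits under 600 nt, the Cav1KO medians were 0.14, 0.19 and 0.36. Beyond the corrected counts above, the part of length in these results was not tested.

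**Figure D5:**
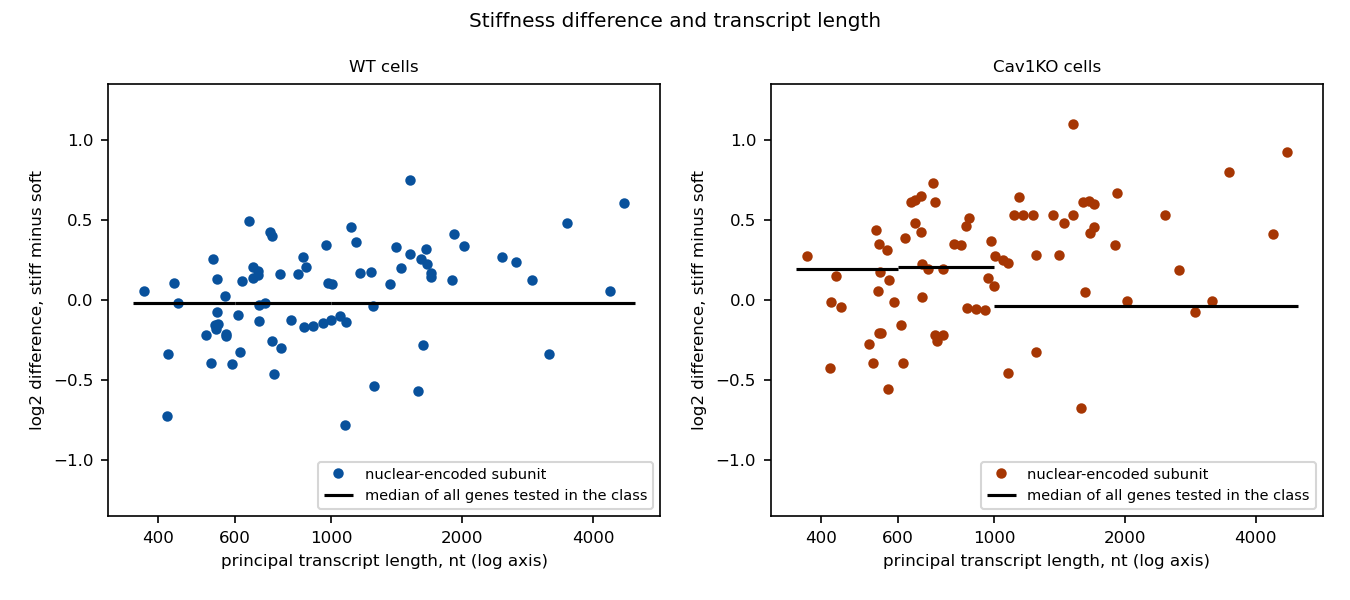
Log2 difference between stiff and soft of each nuclear-encoded subunit (points) against the length of its principal transcript on a log axis, in WT and Cav1KO cells, with black bars for the median of all genes tested in each length class. In Cav1KO cells the bars fall from 0.19 and 0.21 to -0.04 at 1000 nt, while subunits of 1000 nt and over have a median of 0.42.

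Nuclear respiratory genes are known to share promoter elements for NRF1, ETS-family factors and YY1. RefSeq windows of 300 bases (GRCm38.p6, 250 before and 50 after the start) were matched for 64 of the 76 nuclear subunits, and those without a matched window included Ndufa2, Ndufb9, Ndufs1, Sdhc, Cyc1, Uqcrb, Uqcrc2, Uqcrq, Cox4i1, Cox6c and Atp5a1. On either strand, GCGCA and GCGC with any 1 base between them (NRF1) were found together in 17 of 64, or 26.6%, CCGGAAG (ETS) in 16, or 25%, and AAGATGGCG (YY1) in 7, or 10.9%. Among the 32851 windows of all genes the shares were 4.60%, 8.86% and 1.40%, and among the 11624 windows of tested genes 10.1%, 17.6% and 3.01%. At least 1 of the 3 was found in 34 of the 64 subunits, or 53.1%, against 13.6% of all windows and 27.5% of those of tested genes. By call of the stiffness difference within Cav1KO cells, it was found in 21 of the 35 matched subunits called higher on stiff. It was also found in 2 of the 8 called lower and in 11 of the 21 not called, and these shares were not tested against each other. The end of the ETS letters and the start of the YY1 letters can coincide (AAG), and a match is a description of sequence only.

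Stretches before the start that fall in no annotated exon are shown for 3 subunits with an element (Sdhd, Ndufa11, Ndufs5). Within Cav1KO cells these 3 were called higher on stiff than on soft, and in WT none of them was called. Stretches are also given for Atp5g1, which had the highest rise of complex V and none of the 3 elements, and for Cox6a1 and Cox7a2l, which fell. Each runs 5′ to 3′ on the gene's strand, and capitals mark a match to the NRF1 or ETS letters on either strand, one of which the falling Cox6a1 also holds. They lie at chr9:50603850-50603909, chr17:56717686-56717761, chr4:123718203-123718322, chr11:96075671-96075790, chr5:115348982-115349101 and chr17:83514334-83514453 (GRCm38.p6), in the order printed, on the minus strand except Ndufa11.
Sdhd: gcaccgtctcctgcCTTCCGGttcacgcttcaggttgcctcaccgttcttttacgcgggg
Ndufa11: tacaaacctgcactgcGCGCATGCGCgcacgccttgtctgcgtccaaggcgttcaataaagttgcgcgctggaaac
Ndufs5: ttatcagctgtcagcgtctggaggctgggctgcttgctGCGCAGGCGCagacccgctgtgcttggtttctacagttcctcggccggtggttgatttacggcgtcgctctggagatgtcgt
Atp5g1: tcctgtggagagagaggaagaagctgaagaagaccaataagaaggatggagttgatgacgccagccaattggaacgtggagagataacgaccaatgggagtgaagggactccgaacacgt
Cox6a1: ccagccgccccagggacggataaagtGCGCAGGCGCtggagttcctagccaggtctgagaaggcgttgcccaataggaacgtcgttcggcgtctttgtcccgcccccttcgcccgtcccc
Cox7a2l: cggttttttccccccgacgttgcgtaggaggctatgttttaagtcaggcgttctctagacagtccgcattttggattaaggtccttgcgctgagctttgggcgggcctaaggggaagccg

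Among the assembly factors that matched by name, Ndufaf4 rose further on stiff than any nuclear subunit in both genotypes. Ndufaf4, needed early in complex I assembly, was at 35.6 and 36.9 in WT stiff against 17.5 and 14.5 in WT soft and at 27.5 and 27.1 against 10.5 and 10.6 in Cav1KO, rises of 1.14 ± 0.11 (adjusted p = 0.000132) and 1.30 ± 0.11 (adjusted p = 4.15e-05). Ndufaf2 rose by 0.64 ± 0.11 and 0.97 ± 0.11. Ndufaf3 went down in WT, at 3.26 and 3.82 against 7.67 and 7.25 (-0.90 ± 0.16), and was lower in Cav1KO than in WT by 0.67 on stiff and 1.16 on soft. Of the 9, 4 rose and 3 fell in WT, against 22.1% and 26.3% of all genes. In Cav1KO 4 rose and 0 fell, against 27.9% and 28.2%.

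Lists of further mitochondrial genes were counted beside the subunits, to be read against 22.1% of all genes called higher and 26.3% lower on stiff in WT, and 27.9% and 28.2% in Cav1KO. Mitochondrial ribosomal proteins, which translate the 13 mitochondrial messengers, were called higher on stiff for 45 of 77 in WT and 71 of 77 in Cav1KO, and lower for 0 in both, with medians of 0.31 and 0.62. Protein import (Tomm and Timm genes) had 12 and 19 of 24 higher and 0 lower, with Timm8a1 at 1.10 ± 0.13 and 1.55 ± 0.13. Mitochondrial RNA processing and decay had 12 of 20 higher in both genotypes and 0 and 1 lower, with Tbrg4 at 0.96 ± 0.07 and 1.14 ± 0.07. Mitochondrial transcription and genome maintenance had 7 of 16 higher in both genotypes and 2 and 1 lower, with Polrmt, the mitochondrial RNA polymerase, at 0.61 ± 0.12 in WT, while Mterfd2 fell by 0.83 in WT and 1.14 in Cav1KO.

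Assembly of complex IV had 5 of 24 higher and 6 lower in WT, near the background in both directions, and 12 and 3 in Cav1KO. Coenzyme Q synthesis and electron carriers had 10 of 19 higher in both genotypes and 4 and 2 lower. Cycs, cytochrome c itself, was at 1.45 ± 0.14 in Cav1KO, and in WT at 73.9 and 84.7 on stiff against 33.7 and 38.2 on soft. Pdss1 was at 1.15 ± 0.10 in WT, and in Cav1KO at 23.8 and 25.8 on stiff against 9.46 and 8.69 on soft. Adck3 fell by 1.33 in WT and also fell in Cav1KO (adjusted p = 0.00103). The citric acid cycle had 7 and 9 of 14 higher and 0 and 1 lower, led by Idh3a at 0.86 ± 0.09 and 0.83 ± 0.09. Of 14 nuclear regulators 5 rose and 1 fell in WT and 7 rose and 3 fell in Cav1KO. Pprc1, a coactivator of NRF1 targets, rose by 0.99 ± 0.14 and 0.61 ± 0.14. Hif1a fell by 0.70 in WT, and in Cav1KO it was at 310 and 272 on stiff against 443 and 436 on soft. Ppargc1a, the coactivator PGC-1 alpha, fell by 1.71 in Cav1KO.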

How the data were processed

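Per the submitters' processing notes and the labels, 60-base single reads were processed with CASAVA 1.8.2, trimmed with cutadapt and quantified with RSEM 1.2.3 on GRCm38. The deposited values were treated as signal: CPM, reads scaled to a common library size, with trimmed-mean (TMM) factors applied by the authors, in which whole reads were recovered for 100% of values (tolerance 0.02 reads). Of 12528 genes, the 12494 at 1 or more in at least 2 libraries were tested as log2(value + 1) with limma 3.58.1 (R 4.3.3), the 4 groups in 1 fit with 4 residual degrees of freedom and Benjamini-Hochberg adjustment at 0.05. A fold change on this scale understates that of low genes. Alternatives included edgeR 4.0.16 and DESeq2 1.42.0 on the recovered reads, and the fits were tested on simulated data. Replicate numbers were not taken to pair the samples. Members, lists and tests were chosen with earlier results of these data known. Named were all mitochondrial genes, complex II, Cyc1 and isoform sets. Per contrast and complex, the nuclear subunits with the largest called rise and fall were also named, at a mean of 5 or more without overlap of libraries. For assembly factors and lists the largest called rise and fall were taken without those demands, so some of these genes have low values. A list gene given for 1 genotype only may have moved in the other as well. Other genes were named after their values were seen. Lists covered assembly of each complex, electron carriers, mitochondrial transcription, RNA processing, ribosomal proteins, import, the citric acid cycle and nuclear regulators. Sequences came from GENCODE transcripts and RefSeq. Single values of some genes that the rule names are not reported here.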

Additional observations from a re-analysis of the deposited data

Results flagged for a closer look

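The stiffness effect of mt-Nd3 differed between the genotypes in the test of the difference itself: the WT effect minus the Cav1KO effect was -1.22 ± 0.29 with its copy added (log2, adjusted p = 0.0400, limma) and -1.40 as listed. mt-Co2 as listed gave -5.60 in the same test, but it was listed with 0 and 1 reads in WT stiff, beside an identical listed copy, and with the copy added the value was -0.74 ± 0.33 (adjusted p = 0.146). Sdha had stiffness differences of opposite sign without overlap of libraries, 0.13 in WT (adjusted p = 0.132) and -0.0750 in Cav1KO (adjusted p = 0.342), neither of which passed, nor did the difference between them (0.20 ± 0.09, adjusted p = 0.148). Groups of 2 libraries are too small to look for outlying samples.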

How the results depend on the processing

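Of 2413 alternative values for 93 named results, 2197 kept their direction and side of the threshold, 216 lost the call and none reversed, and 68 of those lost came from demanding a 2-fold change. For the counts, 430 of 516 alternative values stayed within 1.5 times. In WT by stiffness, the 17 nuclear subunits called higher became 29 with the length correction, 28 with the replicate block and length correction, 30 with length by principal transcript and 0 at 2-fold, and the 14 called lower became 9 without the trend, 8 with median centring and 0 at 2-fold. In Cav1KO, the 40 higher became 1 at 2-fold, and the 9 lower became 17 with quantile normalization, 16 with plain library totals, 18, 16 and 21 with the length corrections in the order above, and 0 at 2-fold. The 5 mitochondrial genes lower there became 2 with only the groups compared and 0 at 2-fold. For the difference between the effects, the 0 nuclear subunits above became 1 with a pseudocount of 5, a mean of at least 5, quantile normalization or plain totals, and 3, 1 and 3 with the length corrections. The 0 below became 1 with DESeq2, and the 2 mitochondrial genes below became 1 with copies added. Between genotypes on stiff, 28 higher became 2 at 2-fold, 5 lower became 3 with only the groups compared, 10, 10 and 11 with the length corrections and 0 at 2-fold, and 12 mitochondrial genes higher became 7 at 2-fold. On soft, 22 higher became 35, 35 and 36 with the length corrections and 2 at 2-fold, and 16 lower became 0 at 2-fold. There the 3 mitochondrial genes higher became 5 with quantile normalization, 6 with only the groups compared, each length correction or copies added, and 0 at 2-fold, and 0 lower became 1 with DESeq2 or only the groups compared. The causes were not tested, other than the added demand or fewer libraries.

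Leaving out 1 library at a time, the WT nuclear calls ranged from 8 to 19 higher and 6 to 14 lower, and the mitochondrial from 0 to 0 and 6 to 10. In Cav1KO they ranged from 28 to 44 and 5 to 11, and from 1 to 1 and 1 to 6. For the difference between effects they ranged from 0 to 1 and 0 to 20, and from 0 to 0 and 1 to 7. Between genotypes they ranged on stiff from 20 to 35 and 3 to 5, and from 9 to 12 and 0 to 0, and on soft from 13 to 24 and 6 to 20, and from 0 to 6 and 0 to 1. A lone library was then assumed to vary like the other groups.

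Same-numbered libraries of WT stiff and WT soft deviated oppositely (r = -0.487 over 10064 genes), those of Cav1KO stiff and Cav1KO soft weakly together (0.107), those of WT stiff and Cav1KO stiff together (0.575), WT stiff and Cav1KO soft together (0.222), and WT soft with Cav1KO stiff (-0.343) and with Cav1KO soft (-0.130) oppositely. As not every pair was above 0.1 and the labels name no shared batch, the numbers were not taken as pairs. With the replicate block, nuclear calls were 17 higher and 14 lower in WT, 41 and 11 in Cav1KO, 0 and 0 for the difference, 28 and 5 between genotypes on stiff and 22 and 17 on soft, and mitochondrial calls were 0 and 8, 1 and 5, 0 and 2, 12 and 0, and 3 and 0. With the WT soft numbers crossed, the replicate block gave 2 nuclear subunits above and 19 below for the difference between effects and 5 mitochondrial genes below, 9 nuclear lower on stiff, and 6 mitochondrial higher and 1 lower on soft. This crossing follows the signs of the correlations above, so it is drawn from the same libraries. For the difference between effects it called 1675 of 12494 genes above and 1978 below, beside 559 and 750 in the main fit.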

Other observations

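Assembly factors of the complexes were counted by the same lists. Over all genes 22.1% were called higher and 26.3% lower on stiff in WT, and 27.9% and 28.2% in Cav1KO. With lists this short, several of the counts are near those shares. For complex I 8 of 17 rose and 4 fell on stiff in WT and 9 rose and 1 fell in Cav1KO, where Lyrm2 fell by 0.61. For complex III 1 of 5 rose in WT and 2 in Cav1KO with 0 lower, among them Uqcc2 at 0.28 ± 0.10 and 0.81 ± 0.10, and for complex II 0 and 1 of 2 rose, with Sdhaf2 at 0.31 ± 0.08 in Cav1KO. Among complex IV factors, Cox10, which makes heme O, had 0.64 ± 0.13 and Coa4 -0.62 ± 0.21 in WT. In Cav1KO, Coa7 had 0.85 ± 0.13 and Pet117 -0.95 ± 0.30. Pet117 was at very low values, 0.177 and 0 in Cav1KO stiff against 1.41 and 0.823 in Cav1KO soft. For complex V 2 of 5 rose and 1 fell in WT and 3 rose and 1 fell in Cav1KO. Atpaf2, which assembles the catalytic head, rose by 0.59 ± 0.11 and 0.91 ± 0.11, while Atpif1, the inhibitor of ATP hydrolysis, fell by 0.60 and 0.49.

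Further members of the lists with the widest calls were Mrpl20 at 0.93 ± 0.10 and 1.11 ± 0.10 in WT and Cav1KO, and, in Cav1KO cells, Ssbp1, the mitochondrial single-strand binding protein, at 0.77 ± 0.10, and Ptcd1 at -0.46 ± 0.13.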
